A study of Mus musculus with 12 samples.

Results

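The comparison described here set MC38 tumour cultures treated with a PD-1 antibody and a CD8 antibody (aPD-1+CD8) against cultures treated with the PD-1 antibody alone (aPD-1). It was chosen as 1 of the study's 5 deposited comparisons. It uses 6 of the 12 samples, 3 in each group, and lists 15461 genes, of which 11560 were tested. MC38 is a mouse colon carcinoma line. Fresh MC38 tumours grown in C57BL/6 albino mice, as the strain label gives it, were dissociated, and pieces of 40 to 100 µm were cultured in collagen at 2.8 mg/mL inside microfluidic chips. Wells held 300 µL of medium with the treatment for 6 days. The aPD-1 wells received clone RMP1-14 at 10 µg/mL, and the aPD-1+CD8 wells received that antibody and CD8 clone 53-6.7 at 10 µg/mL each. The IgG group, used below for its levels, received the control antibody (clone 2A3, 10 µg/mL), and the IFNg group 100 ng/mL of interferon-gamma. No control antibody is named beside aPD-1 alone, so the aPD-1+CD8 wells held more antibody in total. The labels do not say whether CD8-positive cells were removed, nor whether separate animals gave the replicates of a group, so the p-values rest on the spread between these samples alone, and that spread may be technical.

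T cells carry PD-1 as a brake on their activity, and an antibody that blocks it lets T cells respond more strongly to a tumour. CD8 is the co-receptor of cytotoxic T cells, which kill target cells and release cytokines that act on their neighbours. An antibody against CD8 is commonly used to ask which effects of PD-1 blockade depend on these cells.

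All values are on normalized counts of bulk RNA, and a fold change is log2 of aPD-1+CD8 over aPD-1, with its standard error after ±. Single samples were not analysed here, so the error comes from the authors' model. Fold changes with large errors appear shrunken toward 0, as shown further below. Mean normalized counts summed to 10292900 here and to between 10455100 and 11590700 in the other 4 comparisons, and the depth of single libraries is unknown. The ribosomal RNA gene Rn45s, which held 29.2% of the sum, was at 0.08 ± 0.24 (adjusted p = 0.90) in the authors' deposited table. Most T and NK cell marker transcripts were at or near 0. Of 27 T and NK cell marker entries 14 were in the table, 10 of them with a mean normalized count under 1, and 3 were tested. The 14 summed to 574 with aPD-1 and 713 with aPD-1+CD8, most of it Tcf7, a Wnt pathway factor that other cells also use. Eomes, with a mean count of 88.8, and Ccl5, with 26.3, were the others tested, and neither passed. The T cell receptor chain Cd3e averaged 0.333 normalized counts and the co-receptor Cd4 averaged 0.179 in the authors' deposited table. Cd8a, Pdcd1 and Ifng are not analysed here. Macrophage markers summed to 324 with aPD-1 and 400.0 with aPD-1+CD8, and 1 of 17 tested passed, the receptor Mertk at 0.80 ± 0.24 (adjusted p = 0.011) in the authors' deposited table. Mertk had the largest mean count of the list, 122, so it weighs most in the sum, and it is also in the growth factor receptor list. Of the 23 markers 16 had a mean count under 10. Of the 17 tested 13 had a change above 0 and 4 below, among these Cd14 and Itgam, both at -0.92. Of 16 epithelial marker entries 8 were in the table, 5 of them under a mean count of 1, among them Cdh1, Krt8 and Krt18, which many carcinomas express. Dendritic cell markers had 2 of 5 tested lower, Ccr7 and Fscn1, B cell markers 1 of 2 higher, Pax5, and endothelial markers 1 of 3 lower, Cdh5. Of the neutrophil markers 0 were tested. Whether few cells, depth or the capture step gave these low counts was not tested.

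With the CD8 antibody 1706 of 11560 genes changed (14.8%) at an adjusted p under 0.05 in the authors' DESeq2 test. Of these 904 (7.82%) rose and 802 (6.94%) fell. The decreases had the larger median size. Among the genes that fell the median change was 0.96 on the log2 scale, 72 passed a size of 2 and 9 a size of 4. Among those that rose the median was 0.81, 27 passed a size of 2 and 0 a size of 4. The share called depended on the level of the gene, from 3.34% under a mean count of 10 to 23.2% between 300 and 1000, where the standard errors were smaller. The count depends on the null that the scores are set against: with the spread of the Wald scores of the tested genes as the null (robust SD 1.59) 393 genes passed, 181 higher and 212 lower. With the spread over every gene with a p-value (robust SD 1.22), a choice added after both counts were seen, 958 passed. The counts given below as by the empirical null use the first of these.

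Among the 12 largest increases of genes whose mean count was 50 or more was that of Gdf15, a stress-induced cytokine. Its level was 21 with aPD-1 and 94.2 with aPD-1+CD8. The log2 change was 2.17 ± 0.36 (adjusted p = 7.7e-08), and that of Soat2, which esterifies cholesterol, was 2.15 ± 0.29 (adjusted p = 1.8e-11), as the authors' deposited table gives them. Lonp1, a protease of the mitochondrial matrix, had one of the 8 smallest p-values among the increases at 1.60 ± 0.17 (adjusted p = 3.7e-18) in the authors' deposited table. On the lower side Slpi, a secreted inhibitor of leukocyte proteases, was at -3.67 ± 0.31 (adjusted p = 3.8e-30) in the authors' deposited table. Fgf7, a growth factor that mesenchymal cells make for epithelium, had a level of 645 with aPD-1 and 59 with aPD-1+CD8, a change of -3.45 ± 0.25 (adjusted p = 2.9e-41) in the authors' deposited table. Some genes were measured precisely and did not pass. The elongation factor Eef1a1 was at -0.03 ± 0.14 (adjusted p = 0.94), the G protein subunit Gnb1 at -0.07 ± 0.14 (adjusted p = 0.84) and the transcription factor Nfib at -0.05 ± 0.14 (adjusted p = 0.89) in the authors' deposited table.

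**Figure D1:**
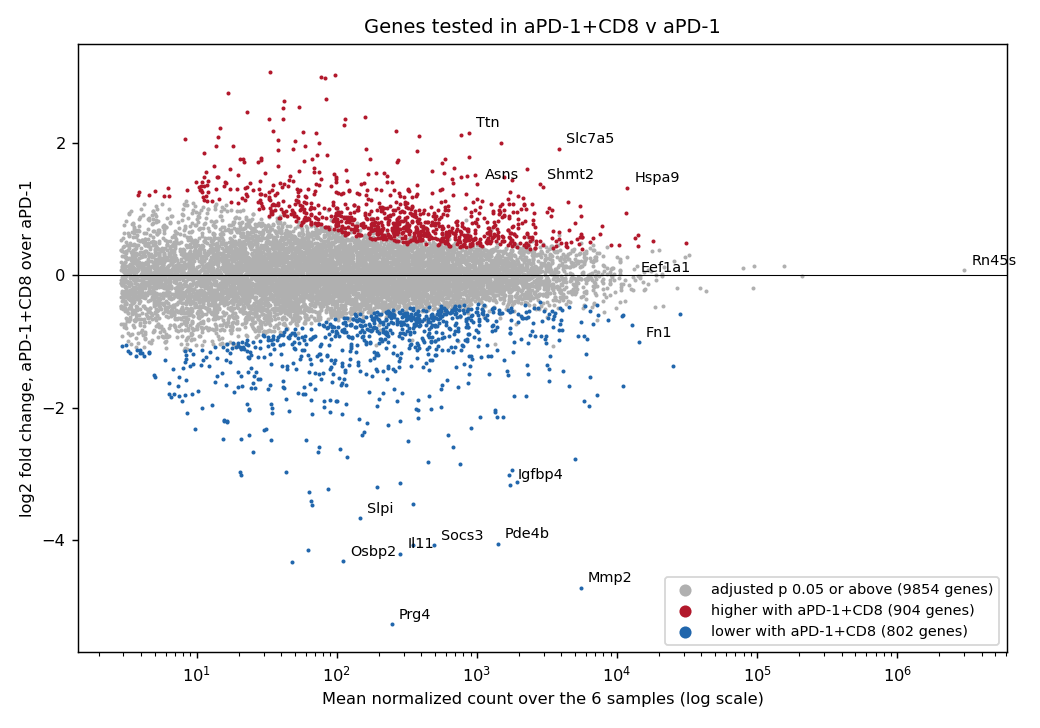
Each point is 1 of the 11560 genes tested, with its mean normalized count over the 6 samples on a log axis and its log2 fold change, aPD-1+CD8 over aPD-1, on the vertical axis. Red points rose (904) and blue points fell (802); the blue points reach -5.27 and the red ones 3.07, and Rn45s and Eef1a1 lie near 0.

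Genes were then read by function. For each list the members called are counted beside the share over all genes tested, 7.82% higher and 6.94% lower, where the median log2 change was -0.00447. The lists were chosen with earlier results known, so their counts are a description and no list was tested.

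**Figure D2:**
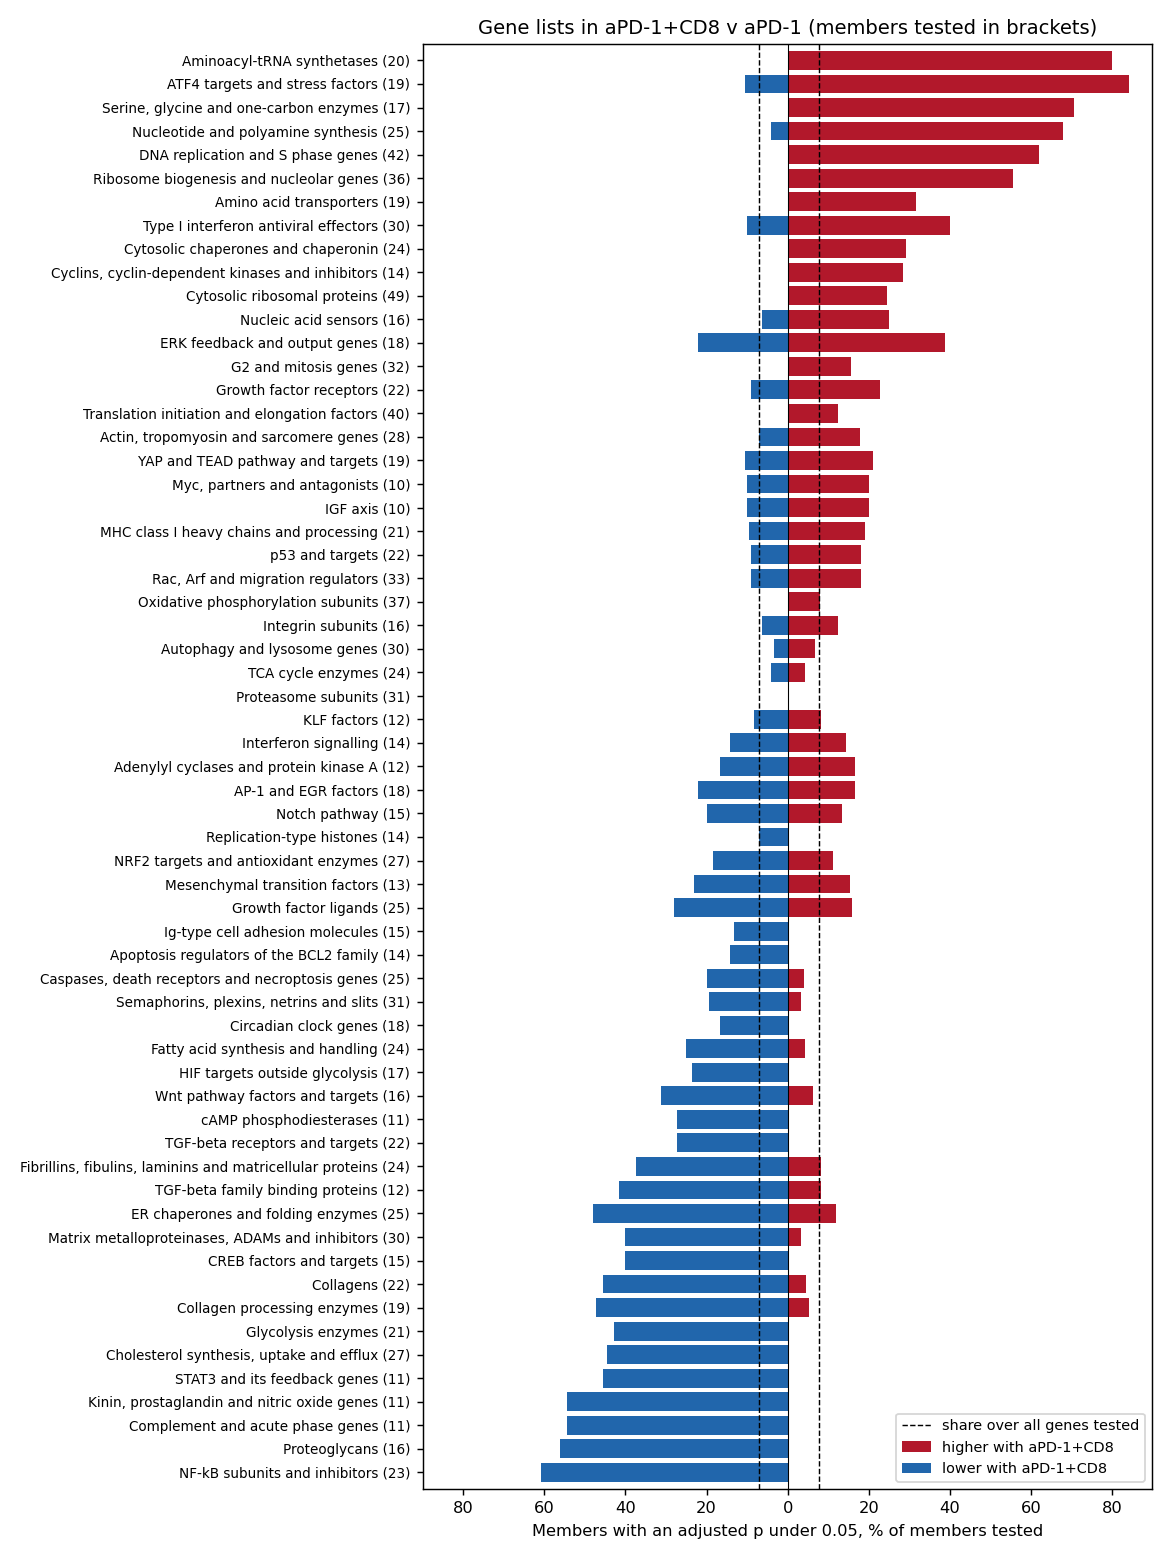
Bars give, for each list with 10 or more members tested, the percentage of those members that rose (red, to the right) or fell (blue, to the left) with aPD-1+CD8; dashed lines mark the shares over all genes tested, 7.82% and 6.94%. Aminoacyl-tRNA synthetases and ATF4 targets stand at one end with 16 members higher each, NF-kB genes at the other with 14 of 23 lower, and proteasome subunits have no bar.

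Most genes that supply and charge amino acids rose. Aminoacyl-tRNA synthetases join each amino acid to its transfer RNA, and 16 of 20 tested members rose and 0 fell, with a median log2 change of 0.997. The leucine enzyme Lars had a level of 968 with aPD-1 and 2615 with aPD-1+CD8, a change of 1.43 ± 0.15 (adjusted p = 2.5e-18) in the authors' deposited table. The tryptophan enzyme Wars was at 1.70 ± 0.23 (adjusted p = 6.5e-12), Nars for asparagine at 1.50 ± 0.19 (adjusted p = 4.8e-13) and Gars for glycine at 1.11 ± 0.15 (adjusted p = 4e-11) in the authors' deposited table. The members that did not pass were Mars, Dars, Farsa and Qars, with Qars at -0.13 ± 0.18 (adjusted p = 0.74) in the authors' deposited table. ATF4 is a transcription factor whose translation rises when amino acids run short or proteins misfold, and of its targets and partners 16 of 19 tested members rose and 2 fell, with a median log2 change of 0.96. Asns, which makes asparagine, had a level of 561 with aPD-1 and 1454 with aPD-1+CD8 and a change of 1.37 ± 0.18 (adjusted p = 1.7e-12) in the authors' deposited table. Trib3, a pseudokinase, was at 1.90 ± 0.27 (adjusted p = 3.1e-10) and Gpt2, an alanine aminotransferase, at 1.25 ± 0.18 (adjusted p = 1.6e-10) in the authors' deposited table. The members that fell were Ddit4, an inhibitor of mTOR, at -1.21 ± 0.19 (adjusted p = 5e-09) and Cebpb, a transcription factor of inflammation, at -1.42 ± 0.15 (adjusted p = 8e-18) in the authors' deposited table.

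The enzymes that make serine and glycine and pass on 1-carbon units moved the same way: 12 of 17 tested members rose and 0 fell, with a median log2 change of 0.97. Phgdh and Psat1 catalyse successive steps of serine synthesis. Phgdh had a level of 336 with aPD-1 and 1033 with aPD-1+CD8 and a change of 1.62 ± 0.20 (adjusted p = 2.6e-13), and Psat1 was at 1.57 ± 0.25 (adjusted p = 1e-08), in the authors' deposited table. The mitochondrial folate enzymes Shmt2 at 1.37 ± 0.17 (adjusted p = 1.3e-13) and Mthfd2 at 1.37 ± 0.21 (adjusted p = 7.5e-09) rose too, as did Gatm of creatine synthesis at 2.26 ± 0.25 (adjusted p = 4.6e-17), in the authors' deposited table. Against the empirical null 11 synthetases, 9 ATF4 members and 8 one-carbon enzymes stayed higher. Fewer transporters passed: of the amino acid transporters 6 of 19 tested members rose and 0 fell, with a median log2 change of 0.11. Slc7a5 and Slc3a2 form 1 exchanger of large neutral amino acids, and they were at 1.91 ± 0.20 (adjusted p = 2.2e-19) and 0.67 ± 0.23 (adjusted p = 0.026) in the authors' deposited table. The arginine and lysine transporter Slc7a1 was at 1.78 ± 0.23 (adjusted p = 1.3e-12), whereas Slc38a2, itself a textbook ATF4 target, was at -0.12 ± 0.15 (adjusted p = 0.69) and the cystine transporter Slc7a11 at -0.14 ± 0.17 (adjusted p = 0.69) in the authors' deposited table.

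Promoters of the ATF4 list are shown because ATF4 binds a composite site, written here as TGATGNAA. In the 250 bases before the start of transcription, 6 of 18 list members with a promoter window held it, and 3 of 12 synthetases, against 2.38% of the tested genes with a window and 3.45% of all windows. Of the 15 one-carbon enzymes with a window 0 held it. In the nearest 100 bases 1 of the 18 list members and 2 of the 12 synthetases held it, against 0.971% of the tested genes. The stretches below, 70 bases each, come from RefSeq on build GRCm38.p6, not the mm9 build of the counts. They run 5′ to 3′ in the direction of the gene, and capitals mark the motif or its reverse complement. The stretches were taken only from called members, so it is no result that all 7 genes rose. Chac1, Pycr1, Aars and Tars were picked with their values known. Vldlr at 0.89 and Nupr1 at 0.65 rose and hold the site too, and their stretches are not shown. Trib3 and Gpt2 of the ATF4 list rose with no match in their windows. The stretch of Asns is at chr6:7693210-7693279 on the minus strand, that of Pck2 at chr14:55540133-55540202 on the plus strand and that of Chac1 at chr2:119351019-119351088 on the plus strand. Pycr1 is at chr11:120643812-120643881 on the minus strand, Gars at chr6:55037931-55038000 on the plus strand, Aars at chr8:111033700-111033769 on the plus strand and Tars at chr15:11399659-11399728 on the minus strand.
Asns: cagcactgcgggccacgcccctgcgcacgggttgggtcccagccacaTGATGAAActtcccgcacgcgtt
Pck2: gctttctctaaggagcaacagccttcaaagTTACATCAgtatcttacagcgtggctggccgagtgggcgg
Chac1: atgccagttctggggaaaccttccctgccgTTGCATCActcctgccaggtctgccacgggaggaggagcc
Pycr1: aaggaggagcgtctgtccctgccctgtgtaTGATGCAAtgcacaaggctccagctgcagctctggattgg
Gars: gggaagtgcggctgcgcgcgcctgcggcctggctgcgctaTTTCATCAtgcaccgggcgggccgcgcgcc
Aars: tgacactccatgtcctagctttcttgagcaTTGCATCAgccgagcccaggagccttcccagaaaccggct
Tars: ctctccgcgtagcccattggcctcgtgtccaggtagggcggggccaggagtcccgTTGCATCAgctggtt
Pck2, the mitochondrial enzyme that makes phosphoenolpyruvate, was at 1.21 ± 0.18 (adjusted p = 2.6e-09) in the authors' deposited table. Chac1, which degrades glutathione, was at 2.18 ± 0.36 (adjusted p = 1e-07) and the proline synthesis enzyme Pycr1 at 1.56 ± 0.30 (adjusted p = 5.6e-06) in the authors' deposited table. A match is only a match of letters, and binding was not measured.

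Many genes of growth rose too. The transcription factor Myc had a level of 505 with aPD-1 and 1436 with aPD-1+CD8, a change of 1.51 ± 0.22 (adjusted p = 1.4e-09), and its partner Max was at 0.51 ± 0.17 (adjusted p = 0.021), in the authors' deposited table. These were the 2 of 10 tested members that rose in the list of Myc, its partners and antagonists, and 1 fell. The median log2 change of that list was -0.09. Of the nucleotide and polyamine enzymes 17 of 25 tested members rose and 1 fell, with a median log2 change of 0.68. Atic of purine synthesis was at 1.08 ± 0.17 (adjusted p = 4.1e-09) in the authors' deposited table. The member that fell was Odc1, the first enzyme of polyamine synthesis, at -1.15 ± 0.21 (adjusted p = 1.4e-06), while Azin1, which protects it from degradation, rose at 0.98 ± 0.15 (adjusted p = 1.2e-08), in the authors' deposited table. Of the nucleolar genes that build ribosomes 20 of 36 tested members rose and 0 fell, with a median log2 change of 0.68, among them Wdr12 at 1.09 ± 0.18 (adjusted p = 8e-08) and the nucleolar protein Ncl at 0.75 ± 0.14 (adjusted p = 8.1e-06) in the authors' deposited table. Cytosolic ribosomal proteins, whose transcripts can also reflect RNA quality, had smaller changes: 12 of 49 tested members rose and 0 fell, with a median log2 change of 0.31. The part of RNA quality was not tested. Rplp0 was at 0.61 ± 0.15 (adjusted p = 0.00062) and Rpl37 at 0.07 ± 0.15 (adjusted p = 0.84) in the authors' deposited table. Of the translation factors 5 of 40 tested members rose and 0 fell, with a median log2 change of 0.25.

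Within the cell cycle the members called belonged mainly to DNA synthesis. Of the replication genes 26 of 42 tested members rose and 0 fell, with a median log2 change of 0.67, and every tested member had a change above 0. Mcm2, part of the replicative helicase, had a level of 697 with aPD-1 and 1424 with aPD-1+CD8 and a change of 1.03 ± 0.17 (adjusted p = 3.2e-08) in the authors' deposited table. The polymerase subunit Pola1 was at 0.99 ± 0.15 (adjusted p = 6.5e-09) and the primase subunit Prim1 at 1.21 ± 0.23 (adjusted p = 3.2e-06) in the authors' deposited table. Of the G2 and mitosis genes 5 of 32 tested members rose and 0 fell, with a median log2 change of 0.08, with the topoisomerase Top2a at 0.22 ± 0.16 (adjusted p = 0.43) and the mitotic kinesin Kif23 at 0.08 ± 0.18 (adjusted p = 0.86) in the authors' deposited table. The difference between the lists was not tested. Against the empirical null the counts higher were 5 for nucleotide enzymes, 6 for nucleolar genes and 9 for replication genes. Cyclin D1, Ccnd1, which drives entry into the cycle, had a level of 265 with aPD-1 and 856 with aPD-1+CD8, a change of 1.69 ± 0.21 (adjusted p = 7.6e-14) in the authors' deposited table. Among replication-type histones 0 of 14 tested members rose and 1 fell, with a median log2 change of -0.26.

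Protein folding genes moved in both directions. Of the cytosolic and mitochondrial chaperones 7 of 24 tested members rose and 0 fell, with a median log2 change of 0.37. The mitochondrial chaperones Hspa9, with a level of 6784 with aPD-1 and 16939 with aPD-1+CD8, and Hspd1 were at 1.32 ± 0.15 (adjusted p = 2.3e-15) and 1.05 ± 0.17 (adjusted p = 1.9e-08) in the authors' deposited table. Of the folding genes of the endoplasmic reticulum 3 of 25 tested members rose and 12 fell, with a median log2 change of -0.47. The calcium-binding chaperone Calr had a level of 4678 with aPD-1 and 2001 with aPD-1+CD8, a change of -1.22 ± 0.15 (adjusted p = 6.1e-14), and the disulphide isomerase Pdia4 was at -0.80 ± 0.16 (adjusted p = 2.2e-05), in the authors' deposited table. The members that rose included the stress sensors Atf6 at 0.96 ± 0.19 (adjusted p = 2.5e-05) and Ern1 at 0.89 ± 0.19 (adjusted p = 6.2e-05), and the other was Herpud1 at 0.78 ± 0.20 (adjusted p = 0.0014), in the authors' deposited table. Against the empirical null 1 folding gene of the endoplasmic reticulum was lower and 0 higher. Of the 31 proteasome subunits 0 passed in the DESeq2 test, with changes between -0.22 and 0.37.

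**Figure D3:**
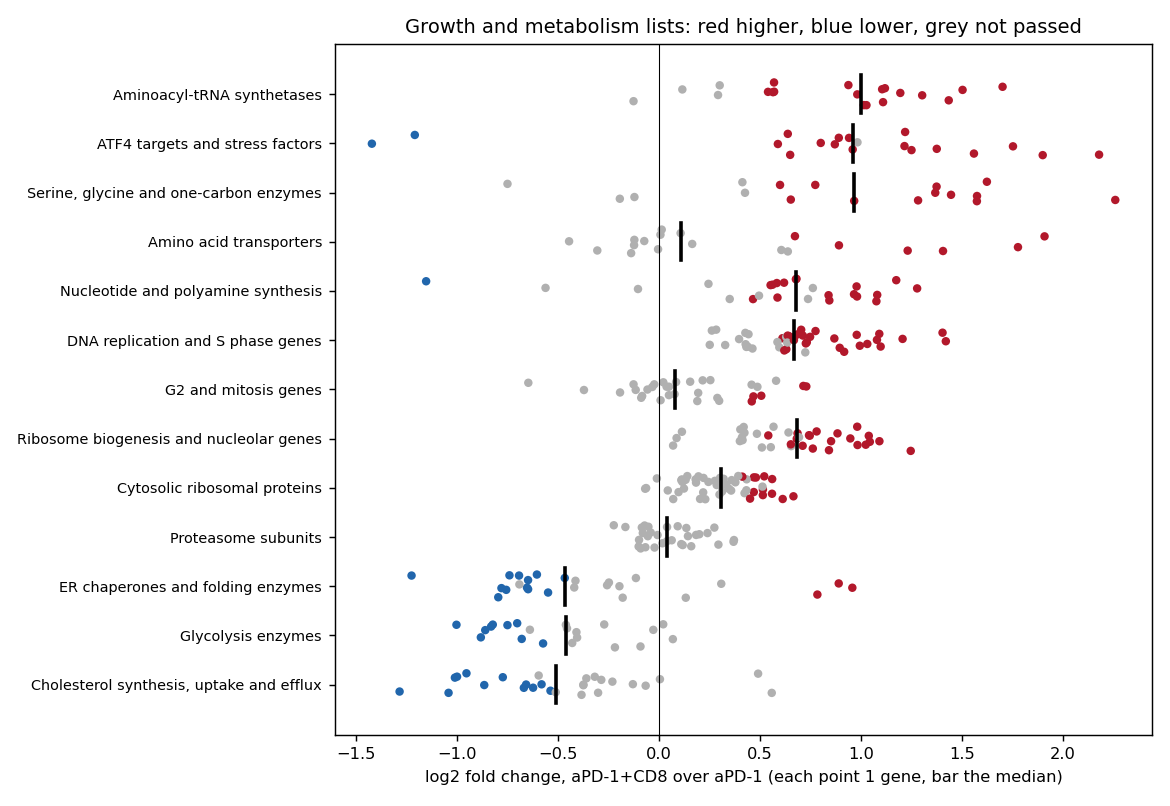
Points are the tested members of 13 lists by log2 fold change, aPD-1+CD8 over aPD-1, red where they rose, blue where they fell and grey where they did not pass; black bars are medians. The synthetase, ATF4 and one-carbon medians lie between 0.96 and 0.997, proteasome subunits at 0.04 and the 3 lists at the bottom between -0.51 and -0.46.

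Among energy and lipid genes most of those that passed fell. Of the glycolysis genes 0 of 21 tested members rose and 9 fell, with a median log2 change of -0.46. Pfkl of the committed step was at -1.003 ± 0.22 (adjusted p = 0.00012), lactate dehydrogenase Ldha at -0.75 ± 0.19 (adjusted p = 0.001) and the lactate transporter Slc16a1 at -0.86 ± 0.22 (adjusted p = 0.0015), while Hk2 was at 0.07 ± 0.19 (adjusted p = 0.89), in the authors' deposited table. With the empirical null 0 glycolysis genes and 1 cholesterol gene were lower. Of other targets of the hypoxia factor HIF 0 of 17 tested members rose and 4 fell, with a median log2 change of -0.54, led by the clock repressor Bhlhe40 at -1.82 ± 0.24 (adjusted p = 4.7e-12) in the authors' deposited table. Of the genes of cholesterol synthesis, uptake and efflux 0 of 27 tested members rose and 12 fell, with a median log2 change of -0.51, among them the exporter Abca1 at -0.95 ± 0.20 (adjusted p = 7.7e-05) in the authors' deposited table. Soat2, which rose as given above, is not in this list. In fatty acid metabolism 1 of 24 tested members rose and 6 fell, with a median log2 change of -0.23. The desaturases Scd1 at -0.74 ± 0.16 (adjusted p = 6.5e-05) and Scd2 at -0.70 ± 0.15 (adjusted p = 4.1e-05) fell and the synthase Fasn was at -0.08 ± 0.15 (adjusted p = 0.80) in the authors' deposited table. Shares near or under the background held for the TCA cycle, with 1 of 24 higher and 1 lower, oxidative phosphorylation, with 3 of 37 higher and 0 lower, and autophagy and lysosome genes, with 2 of 30 higher and 1 lower.

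Several cytokines of the IL-6 family fell, as did some of their receptors and of the STAT3 feedback genes. These ligands act through the shared receptor chain Il6st and the factor STAT3. Of the cytokines 3 of 5 tested members fell and 0 rose. Lif had a level of 664 with aPD-1 and 39.4 with aPD-1+CD8 in a pair worked out from the deposited mean and fold change, and Osm, oncostatin M, was at -2.22 ± 0.41 (adjusted p = 2.3e-06) in the authors' deposited table. The ligand Clcf1 was at 0.46 ± 0.24 (adjusted p = 0.22) in the authors' deposited table. Of the receptors 2 of 6 fell, among them the oncostatin receptor Osmr at -2.17 ± 0.26 (adjusted p = 4.5e-15), and Il6st was at -0.36 ± 0.18 (adjusted p = 0.17), in the authors' deposited table. The list of STAT3, its kinases, regulators and feedback genes had 5 of 11 tested members lower and 0 higher. Its median log2 change was -0.26. Stat3 itself had a level of 9110 with aPD-1 and 2436 with aPD-1+CD8 and a change of -1.90 ± 0.23 (adjusted p = 9.6e-15), and the kinase Jak2 was at -1.20 ± 0.22 (adjusted p = 1.8e-06) while Jak1 was at -0.13 ± 0.17 (adjusted p = 0.72), in the authors' deposited table.

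NF-kB genes, which encode the factor's subunits, inhibitors and adaptors, had the largest share lower of the lists with at least 10 tested members: 0 of 23 tested members rose and 14 fell, with a median log2 change of -0.73. Nfkbiz, a nuclear co-regulator, had a level of 888 with aPD-1 and 223 with aPD-1+CD8 and a change of -1.99 ± 0.21 (adjusted p = 2.2e-18) in the authors' deposited table. The inhibitor Nfkbie was at -1.61 ± 0.24 (adjusted p = 3.2e-09) and the adaptor Tnip1 at -0.99 ± 0.17 (adjusted p = 1.5e-07), whereas the kinase Ikbkb was at -0.03 ± 0.17 (adjusted p = 0.94), in the authors' deposited table. By the empirical null 5 NF-kB genes, 3 complement and acute phase genes and 2 of the kinin and prostaglandin list were lower. Acute phase and complement genes fell as well, 6 of 11 with 0 higher. Complement C3 had a level of 544 with aPD-1 and 95.8 with aPD-1+CD8 and a change of -2.51 ± 0.25 (adjusted p = 2.4e-21), and serum amyloid Saa3 was at -3.46 ± 0.36 (adjusted p = 1.9e-19), in the authors' deposited table. In the kinin, prostaglandin and nitric oxide list 6 of 11 fell and 0 rose. The inducible cyclooxygenase Ptgs2 was at -2.85 ± 0.23 (adjusted p = 4e-31) and the prostaglandin synthase Ptges at -0.87 ± 0.25 (adjusted p = 0.005) in the authors' deposited table.

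Of the cAMP phosphodiesterases 3 of 11 tested members fell and 0 rose, with a median log2 change of -0.11. Of the adenylyl cyclases and protein kinase A genes 2 of 12 rose and 2 fell, with a median of -0.17. The phosphodiesterase Pde4d was at -2.26 ± 0.22 (adjusted p = 2.8e-23) and the cyclase Adcy5 at 2.75 ± 0.41 (adjusted p = 1.7e-09) in the authors' deposited table. In the list of cAMP-responsive CREB factors, their co-activators and their targets 6 of 15 fell and 0 rose. Of the factors Crem fell, at -1.90 ± 0.26 (adjusted p = 9.7e-12), and Creb1 was at -0.13 ± 0.18 (adjusted p = 0.74) in the authors' deposited table. The nuclear receptors Nr4a2 and Nr4a3 were at -3.02 ± 0.24 (adjusted p = 2.7e-34) and -3.41 ± 0.33 (adjusted p = 5.7e-23), Rgs2, which turns off G proteins, at -2.74 ± 0.30 (adjusted p = 1.1e-17) and the kinase Sik1 at -1.78 ± 0.26 (adjusted p = 3.8e-10) in the authors' deposited table. AP-1 and EGR factors moved both ways, 3 of 18 higher and 4 lower. Fosl2 had a level of 8795 with aPD-1 and 1282 with aPD-1+CD8 and a change of -2.78 ± 0.22 (adjusted p = 4.7e-33), Junb was at -2.06 ± 0.18 (adjusted p = 1.5e-28) and Jun at -0.02 ± 0.17 (adjusted p = 0.96) in the authors' deposited table. Atf3 at 1.30 ± 0.35 (adjusted p = 0.0032) and Fosl1 at 0.93 ± 0.25 (adjusted p = 0.0032) rose in the authors' deposited table. Genes driven by the kinase ERK were split too, 7 of 18 higher and 4 lower, with Etv4 at 1.02 ± 0.21 (adjusted p = 3.4e-05) and Dusp4 at 1.39 ± 0.34 (adjusted p = 0.00066) against Phlda1 at -1.82 ± 0.19 (adjusted p = 2.1e-20) in the authors' deposited table.

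Growth factors and their receptors moved separately. Of 25 ligands 4 rose and 7 fell. Vegfa, which drives vessel growth, had a level of 11208 with aPD-1 and 3204 with aPD-1+CD8, and the ErbB ligands Nrg1 and Ereg were at -1.08 ± 0.19 (adjusted p = 8.2e-07) and -1.69 ± 0.35 (adjusted p = 3.3e-05) in the authors' deposited table. Of 22 receptors 5 rose and 2 fell. Met, the receptor of hepatocyte growth factor, had a level of 79.1 with aPD-1 and 266 with aPD-1+CD8 and a change of 1.75 ± 0.22 (adjusted p = 6.1e-13), and Erbb3 was at 1.29 ± 0.22 (adjusted p = 3.2e-07) and Axl at 1.08 ± 0.15 (adjusted p = 1.1e-10), in the authors' deposited table. In the TGF-beta family most members that passed were lower. Of the ligands and their activating protease 4 of 8 fell and 0 rose, with Inhba, an activin subunit, at -1.87 ± 0.25 (adjusted p = 5.1e-12) and Tgfb2 at -1.21 ± 0.31 (adjusted p = 0.0012), and Tgfb1 was at -0.42 ± 0.18 (adjusted p = 0.11), in the authors' deposited table. Of binding proteins 5 of 12 fell and the BMP antagonist Grem1 rose, at 0.87 ± 0.26 (adjusted p = 0.0073) in the authors' deposited table. Of receptors and targets 6 of 22 fell and 0 rose, among them Id3 at -2.67 ± 0.40 (adjusted p = 1.6e-09) and Tgfbr2 at -0.92 ± 0.23 (adjusted p = 0.00085), while Smad3 was at -0.02 ± 0.17 (adjusted p = 0.97), in the authors' deposited table. Wnt factors had 5 of 16 lower and 1 higher, with the receptor Fzd1 at -1.95 ± 0.31 (adjusted p = 1.1e-08) and Lef1 at -1.02 ± 0.18 (adjusted p = 1.4e-06) in the authors' deposited table. The Notch list had 2 of 15 tested members higher and 3 lower. Notch1 rose at 0.63 ± 0.20 (adjusted p = 0.012) and Notch2 fell at -1.14 ± 0.15 (adjusted p = 2.4e-12) in the authors' deposited table. The list of the YAP pathway and its targets had 4 of 19 tested members higher and 2 lower, with a median log2 change of 0.17. Ankrd1, a target of the YAP factor, rose most of all genes called, at 3.07 ± 0.37 (adjusted p = 7.9e-15) in the authors' deposited table. Its mean count over both groups was 33.4.

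Many matrix genes fell. In bulk RNA fewer cells of a type and less RNA per cell cannot be told apart. Fibroblast markers moved with the matrix: 4 of 10 tested fell and 0 rose, and their summed level was 5864 with aPD-1 and 2489 with aPD-1+CD8. Most of that sum came from Dcn and Col1a1, which are matrix genes themselves and also stand in the proteoglycan and collagen lists below. Dcn, decorin, had a level of 2486 with aPD-1 and 566 with aPD-1+CD8 and a change of -2.14 ± 0.21 (adjusted p = 2.9e-21), and Col1a1 was at -1.04 ± 0.40 (adjusted p = 0.057), in the authors' deposited table. Gli1 was at -2.07 ± 0.27 (adjusted p = 1.5e-12) and Pdgfra at -1.08 ± 0.39 (adjusted p = 0.043), while Pdgfrb was at 0.22 ± 0.38 (adjusted p = 0.80), in the authors' deposited table. Mean counts in the authors' deposited table ran from 1.25 for Lum to 1526 for Dcn, with Postn, Acta2 and Col1a2 under 10 and Col1a1, Pdgfra and Pdgfrb between 508 and 1351. The part of fibroblast number in the matrix results was not tested. Of the collagens 1 of 22 tested members rose and 10 fell, with a median log2 change of -0.63. Col7a1 of anchoring fibrils was at -2.42 ± 0.21 (adjusted p = 4.4e-27) and Col3a1 at -2.14 ± 0.37 (adjusted p = 2.9e-07), while the basement membrane chains Col4a1 and Col4a2 were at 0.06 ± 0.22 (adjusted p = 0.91) and -0.03 ± 0.22 (adjusted p = 0.97), in the authors' deposited table. Of the processing enzymes 1 of 19 tested members rose and 9 fell, with a median log2 change of -0.70, among them the lysyl hydroxylase Plod2 at -1.50 ± 0.24 (adjusted p = 4.6e-08) and Bmp1, which cleaves procollagen, at -2.31 ± 0.21 (adjusted p = 4.2e-25) in the authors' deposited table. With the empirical null 5 collagens, 3 proteoglycans and 7 metalloproteinases and inhibitors were lower.

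Proteoglycans fell in 9 of 16 cases and rose in 0, with a median of -0.76. The syndecan Sdc1 had a level of 1156 with aPD-1 and 191 with aPD-1+CD8 and a change of -2.60 ± 0.17 (adjusted p = 2.9e-47), and perlecan, Hspg2, was at -0.69 ± 0.16 (adjusted p = 0.00022), in the authors' deposited table. Of fibrillins, laminins and matricellular proteins 2 of 24 tested members rose and 9 fell, with a median log2 change of -0.63. Emilin1 of elastic fibres was at -2.82 ± 0.20 (adjusted p = 2.4e-40), Thbs1, thrombospondin, at -3.19 ± 0.25 (adjusted p = 1.4e-35) and Sparc at -1.19 ± 0.18 (adjusted p = 9.6e-10), while the laminin chain Lamb1 was at 0.04 ± 0.19 (adjusted p = 0.94), in the authors' deposited table. Of matrix proteases and their inhibitors 1 of 30 tested members rose and 12 fell, with a median log2 change of -0.52. Mmp14, which activates Mmp2, was at -1.50 ± 0.20 (adjusted p = 8.1e-12), the inhibitor Timp1 at -2.41 ± 0.25 (adjusted p = 3e-19) and Adamts4, which cuts aggrecan, at -1.77 ± 0.23 (adjusted p = 4.7e-13) in the authors' deposited table.

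Adhesion and movement genes went both ways. The adhesion molecule Ncam1 had a level of 3126 with aPD-1 and 408 with aPD-1+CD8, a change of -2.94 ± 0.21 (adjusted p = 8.6e-43) in the authors' deposited table. Itga6, a laminin-binding integrin, rose at 1.72 ± 0.29 (adjusted p = 2.4e-07) and Itga5, which binds fibronectin, fell at -0.97 ± 0.20 (adjusted p = 3e-05), while Itgb1 was at -0.17 ± 0.18 (adjusted p = 0.61), in the authors' deposited table. Of guidance genes 6 of 31 fell and 1 rose, with Nrp1 at -1.50 ± 0.22 (adjusted p = 1.2e-09) and Sema6a at 0.78 ± 0.22 (adjusted p = 0.004) in the authors' deposited table. Among regulators of Rac and Arf 6 of 33 rose and 3 fell. Arap2 rose at 2.36 ± 0.28 (adjusted p = 1.4e-14) in the authors' deposited table. Protocadherins, adhesion proteins many of which lie in clusters and share exons, fell in 9 of 49 cases and rose in 0, with a median of -0.70. How the counting divided shared exons was not analysed here.

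Of the type I interferon effectors 12 of 30 tested members rose and 3 fell, with a median log2 change of 0.97. They restrict viruses and are induced through the factor complex that includes Irf9. Oas2 and Oas3, which make a signal for RNA decay, had levels of 16.2 with aPD-1 and 60 with aPD-1+CD8, and of 20.4 with aPD-1 and 76.4 with aPD-1+CD8. Their changes were 1.89 ± 0.34 (adjusted p = 1.1e-06) and 1.91 ± 0.35 (adjusted p = 1.6e-06) in the authors' deposited table. Bst2, tetherin, was at 1.45 ± 0.30 (adjusted p = 3e-05) in the authors' deposited table. The 3 members that fell were all of the Ifitm family, membrane proteins that hinder virus entry. Ifitm2 was at -1.40 ± 0.21 (adjusted p = 1.9e-09), and Ifitm1 at -1.62 ± 0.43 (adjusted p = 0.002) and Ifitm3 at -0.58 ± 0.21 (adjusted p = 0.038), the last 2 named after their values were seen, in the authors' deposited table. Irf9 at 1.23 ± 0.24 (adjusted p = 5.5e-06) and Irf7 at 1.30 ± 0.40 (adjusted p = 0.012) rose, and the receptor chains Ifnar1 at -0.87 ± 0.26 (adjusted p = 0.0088) and Ifngr1 at -0.92 ± 0.28 (adjusted p = 0.0092) fell, in the authors' deposited table. The empirical null left 4 effectors higher and 1 lower. In the authors' deposited table the factor Irf1 at -0.42 ± 0.20 (adjusted p = 0.15) missed the threshold. Of the RNA and DNA sensors 4 of 16 rose and 1 fell, with Ifih1 at 1.38 ± 0.26 (adjusted p = 2.8e-06) and Zbp1 at -2.10 ± 0.29 (adjusted p = 9.1e-11) in the authors' deposited table. Guanylate-binding proteins had 2 of 8 higher, Gbp3 at 1.55 ± 0.28 (adjusted p = 1.9e-06) and Gbp4 at 1.18 ± 0.41 (adjusted p = 0.032), with Gbp2 at -0.62 ± 0.31 (adjusted p = 0.19), in the authors' deposited table. Of the immunity-related GTPases 2 of 7 rose, and of the interferon-linked PARPs 4 of 7 rose and Parp8 fell. The MHC class I list had 4 of 21 tested members higher and 2 lower, with a median log2 change of 0.0065. Its heavy chain H2-K1 at 0.56 ± 0.15 (adjusted p = 0.0031) and the light chain B2m at 0.62 ± 0.20 (adjusted p = 0.02) rose in the authors' deposited table. The 2 members that fell there, Calr and Pdia3, are folding proteins of the endoplasmic reticulum.

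Promoters of these effectors are shown with the core of the interferon-stimulated response element, which reads GAAA, any 2 bases, GAAA, searched on both strands. It stood in the 250 bases before the start of 9 of 22 list members with a window, against 3.25% of 8655 tested genes with a window and 2.98% of all 32851 windows. Source, build and direction are as for the ATF4 list, and capitals mark the core or its reverse complement, where cores may overlap. Oas3 lies at chr5:120777695-120777764 on the minus strand, Bst2 at chr8:71537563-71537632 on the minus strand, Isg15 at chr4:156200857-156200926 on the minus strand and Ifit1 at chr19:34640755-34640824 on the plus strand. Ifitm2, which fell, holds the core too, at chr7:140955968-140956037 on the minus strand.
Oas3: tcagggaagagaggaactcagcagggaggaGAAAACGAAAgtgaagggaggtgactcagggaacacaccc
Bst2: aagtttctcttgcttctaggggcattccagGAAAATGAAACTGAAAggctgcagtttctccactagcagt
Isg15: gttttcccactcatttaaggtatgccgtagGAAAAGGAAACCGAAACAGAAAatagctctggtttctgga
Ifit1: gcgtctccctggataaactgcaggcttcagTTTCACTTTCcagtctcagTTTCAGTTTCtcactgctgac
Ifitm2: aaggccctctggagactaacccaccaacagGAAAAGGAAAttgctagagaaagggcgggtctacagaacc
Isg15, a ubiquitin-like modifier, was at 1.74 ± 0.37 (adjusted p = 5.8e-05) and Ifit1, which binds viral RNA, at 1.54 ± 0.39 (adjusted p = 0.0014) in the authors' deposited table, both named after their values were seen. Over all genes that rose, 697 of 904 had a window and 4.73% held the core, against 2.92% of 582 windows among the 802 that fell. The E-box CACGTG, a site of Myc and related factors, stood in 12.6% of the windows of genes that rose, 6.87% of those that fell and 10.1% of those tested. For TGATGNAA the shares of genes that rose and fell were 4.45% and 1.89%. In 100 bases they were 1.15% and 1.37%, so the order turned. Shares of the STAT-type site TTCNNNGAA were 6.03% and 7.56% (7.19% of those tested), those of the AP-1 site TGANTCA 6.31% and 7.04% (5.42%), and those of the cAMP response element TGACGTCA 2.15% and 3.09% (3.15%). All were counted on both strands, each motif on its own, so matches of different motifs may overlap. In 100 bases the other 5 motifs kept the order of the shares of genes that rose and fell. No share was tested.

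Death and stress genes passed in part. Of caspases and death receptors 1 of 25 rose and 5 fell. Tnfrsf9, a costimulatory receptor that other cells also induce, had a level of 115 with aPD-1 and 11.9 with aPD-1+CD8 and a change of -3.27 ± 0.32 (adjusted p = 4.4e-22), Fas was at -1.66 ± 0.40 (adjusted p = 0.00064) and Casp1 at -1.05 ± 0.33 (adjusted p = 0.016) in the authors' deposited table. Of the BCL2 family 2 of 14 fell, Bnip3l at -0.97 ± 0.23 (adjusted p = 0.00058) and Bcl2l11 at -0.87 ± 0.31 (adjusted p = 0.033), and Mcl1 was at -0.17 ± 0.18 (adjusted p = 0.61), in the authors' deposited table. Targets of p53 went both ways, 4 of 22 higher and 2 lower. Antioxidant genes had 3 of 27 tested members higher and 5 lower. The mitochondrial dismutase Sod2 was at -2.04 ± 0.17 (adjusted p = 1.2e-29) in the authors' deposited table. In symbol families with shares near or under the background, 6 of 268 Zfp zinc finger genes rose and 7 fell, 1 of 43 Rab GTPases rose and 1 fell, and 0 of 20 hnRNP genes passed.

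The IgG group gives these levels another reference. Group levels were solved from the mean counts of all 5 comparisons after they were brought to 1 scale, with no error estimate and no shrinkage. Lars was at 2453 with IgG, 948 with aPD-1 and 2635 with aPD-1+CD8, and Asns at 1369 with IgG, 545 with aPD-1 and 1469 with aPD-1+CD8. On the other side Socs3, a feedback inhibitor of cytokine signalling, was at 32.7 with IgG, 941 with aPD-1 and 49 with aPD-1+CD8. Mmp2, a gelatinase, was at 429 with IgG, 10647 with aPD-1 and 329 with aPD-1+CD8. In each of these 4 genes the aPD-1+CD8 level was nearer to the IgG level than to the aPD-1 level. All 4 were picked from genes called in aPD-1+CD8 v aPD-1, which favours this order. Over the 5706 genes that averaged 100 or more counts in each of the 5 comparisons, the solved ratio of aPD-1+CD8 to IgG reached a size of 1 on the log2 scale in 0 genes, that of aPD-1+CD8 to aPD-1 in 322 and that of aPD-1 to IgG in 298. Over all 11535 tested genes with a solved ratio of aPD-1+CD8 to IgG 270 reached that size, 269 of them with a mean count under 100, against 1376 for aPD-1+CD8 to aPD-1 and 1312 for aPD-1 to IgG. Over the 5706 genes the robust SDs of the log2 ratios were 0.11, 0.40 and 0.37.

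**Figure D4:**
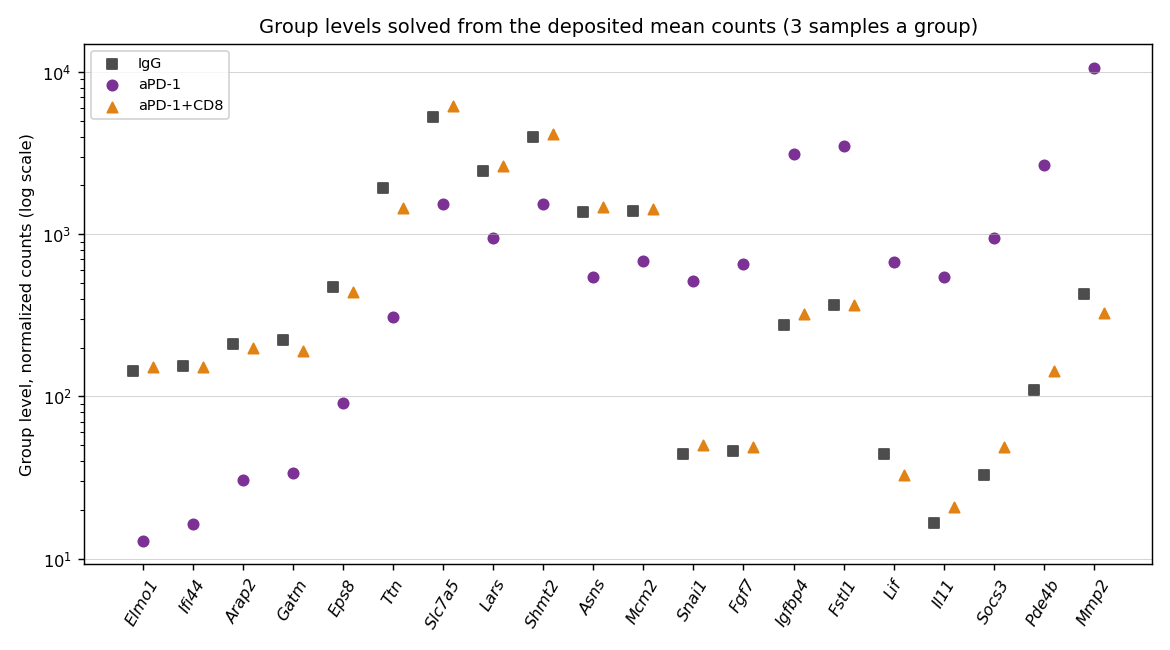
Group levels in normalized counts, on a log axis, for 20 genes that rose or fell in aPD-1+CD8 v aPD-1, solved from the deposited mean counts, with 3 samples a group and no error estimate. In all 20 the squares (IgG) and triangles (aPD-1+CD8) lie nearer to each other than to the circles (aPD-1). The 20 were picked from genes called in that comparison, which favours this pattern.

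In the authors' own test of aPD-1+CD8 v IgG 0 of 15304 genes passed an adjusted p under 0.05 with DESeq2, and 57 had an unadjusted p under 0.05. Deposited fold changes there ran only from -0.35 to 0.31 and no standard error exceeded 0.11, so it appears shrunken. A p over the threshold does not show that the groups were alike. The fold changes of aPD-1+CD8 v aPD-1, where no standard error exceeded 0.43, appear shrunken too where the error was large. Deposited and solved, Id3 was at -2.67 and -4.21 and Hgf at -1.63 and -3.08. Over the 5706 genes the median absolute difference was 0.012, but the scale of the solved levels was itself fitted to the deposited changes. Changes given for genes with large errors may be too small, and their pair levels too close. Side by side in the authors' deposited table, Lars was at 1.43 ± 0.15 in aPD-1+CD8 v aPD-1, -1.36 ± 0.13 in aPD-1 v IgG and 0.08 ± 0.10 in aPD-1+CD8 v IgG. Stat3 was at -1.90 ± 0.23, 1.92 ± 0.15 and -0.03 ± 0.11, in the same order in the authors' deposited table. Each pair of these comparisons shares a group, and any deviation of the 3 aPD-1 samples enters both comparisons that use them, so the likeness is no independent result. Whether 1 aPD-1 sample set these values was not analysed here. IFNg v aPD-1 shares the aPD-1 samples as well: in the authors' deposited table it had Oas2 at 3.93 ± 0.31, Lars at 1.19 ± 0.16 and Ptgs2 at 0.06 ± 0.49.

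**Figure D5:**
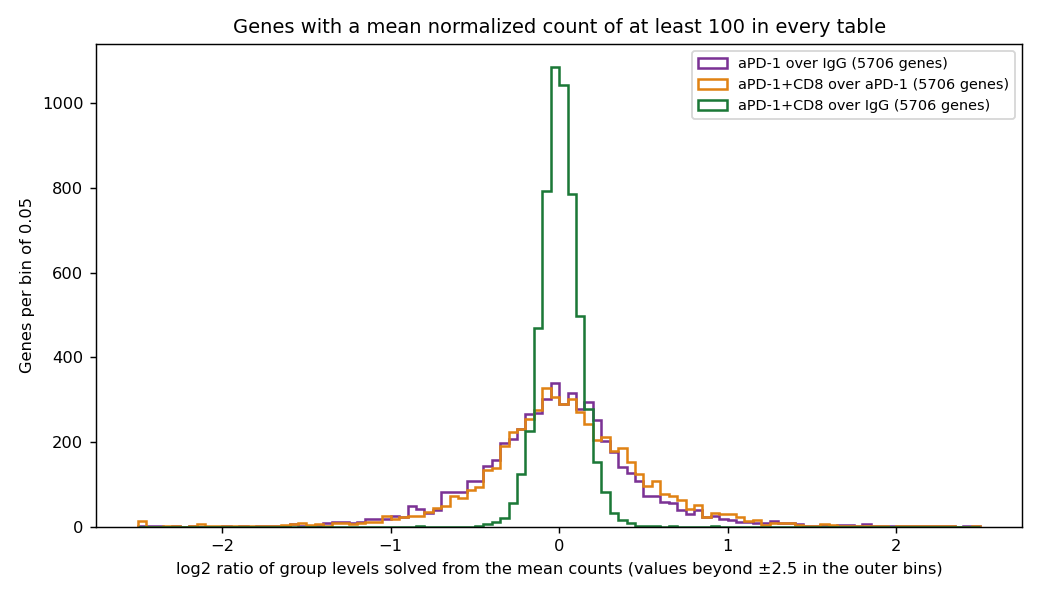
Histograms of the log2 ratio of solved group levels over the 5706 genes that averaged 100 or more counts in each comparison, in bins of 0.05, with values beyond 2.5 in either direction in the outer bins. The aPD-1+CD8 over IgG ratios (green) are narrow, with a robust SD of 0.11, and the ratios that involve aPD-1 (purple and orange) spread to 0.37 and 0.40.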

How the data were processed

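RNA was measured in 12 bulk libraries, 3 in each of 4 groups, made by exome capture per the labels' protocols. The deposited files are 5 tables of the authors' own comparisons, made with DESeq2 on build mm9 per the submitters' processing notes. Per the file headers, each gives the mean normalized count (a signal over both groups), the log2 fold change, its standard error, the Wald score, and the p-value and adjusted p-value of that score. The columns hold 0 single samples, so counts were not refitted, and depth and replicate spread per sample are unknown. For the aligner and the counter the sources used here name nothing.

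A gene was tested if its deposited adjusted p-value was given and called at a value under 0.05. The levels of the pair were computed from the mean and the fold change. Shrinkage of the fold change, where present, enters these levels. Levels of all groups were solved by least squares from the 5 means after scaling, with values under 2% of the highest group left out; the scaling, the 2% and the limit of 0.2 on the standard error used for it were chosen after seeing the data. Scripts used Python 3.11.15, pandas 2.3.3 and numpy 2.4.6, and were tested on simulated data.

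The members and the 81 lists were chosen with earlier results of these data known. Of 1817 list entries 1661 matched a gene. Genes named were the 12 largest increases and decreases by size at a mean count of at least 50, the 8 smallest p-values in each direction, up to 6 called members of a list and up to 3 that did not pass, up to 4 of a symbol family, and the most precise genes with an adjusted p above 0.5. Farsa, Herpud1 and the others marked in the text were chosen after their values were seen. Alternatives were a stricter adjusted p-value, a minimum size, count minimums, no filter, another centring, an empirical null, solved ratios and a shorter promoter window. Some named members are not reported here. Promoters are RefSeq sequences of GRCm38.p6, matched by symbol.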

Additional observations from a re-analysis of the deposited data

How the results depend on the processing

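The 1706 calls, 904 higher and 802 lower, became 1099 at an adjusted p under 0.01, with 579 higher and 520 lower, and 656 at an absolute log2 fold change of at least 1, with 284 higher and 372 lower. The planned empirical null divided the Wald score by its robust SD over genes, without saying which genes. Over the tested genes (SD 1.59) 393 passed, 181 higher and 212 lower, and called list members went from 477 to 172. Over every gene with a p-value (SD 1.22), a choice added after both counts had been seen, 958 passed, 494 higher and 464 lower. Count minimums of 10 and 100, no filter and another centring gave 1700, 1337, 1557 and 1704 calls. Of 430 called named genes with a solved ratio 0 had the other sign. The solved ratios use the same samples and a scale fitted to the deposited changes, so this likeness is no independent check. Of 810 list results 607 stayed within 1.5 times. The share of rising genes with the ISRE core was 4.73% in 250 bases and 2.01% in 100. For the ATF4 motif, added after seeing the data, the shares of rising and falling genes were 4.45% and 1.89% in 250 bases and 1.15% and 1.37% in 100, and its list went from 6 to 1 of 18. No paired analysis was possible because the tables hold no columns of single samples, and leaving out each replicate could not be run for the same reason. Depth and the spread of single libraries are unknown, so whether 1 library decides a value was not tested.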
